A study of Homo sapiens with 6 samples.

Results

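Muscle cells turn an electrical signal into force through calcium, and the genes of that step were examined in RH36, an established cell line of embryonal rhabdomyosarcoma (ERMS), a tumour of skeletal muscle lineage. The 10 genes are CACNA1S, CACNB1, RYR1, RYR3, TRDN, CASQ1, CASQ2, ATP2A1, ATP2A2 and SLN, and every probe that carries one of these names in the array files was taken. They are 10 of 30484 gene names and have 16 of the 41000 probes of the array. Each of 6 arrays held Cy3-labelled RNA of 1 sample. In 3 of them the cells had received pre-miR-27a, a precursor that yields the microRNA miR-27a, and in the other 3 a negative pre-control. RH36 lacks the PAX3/FOXO1 translocation, so all 6 arrays come from 1 fusion-negative line and from transient transfection. The labels give 10 nM of precursor for both groups, a test 24 hours after transfection, and 48 hours in the source name of the pre-miR-27a arrays alone. The methods of the paper name another concentration and reagent, so the dose and time of the arrays remain uncertain. The labels call the arrays biological replicates and say no more of their cultures, so p-values measure the spread between these samples.

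In a muscle fibre, the voltage sensor of the cell membrane, whose pore subunit is CACNA1S and whose beta subunit is CACNB1, opens the release channel RYR1 of the sarcoplasmic reticulum. Triadin (TRDN) ties that channel to the calsequestrins CASQ1 and CASQ2, which hold calcium inside the store, and the pumps ATP2A1 and ATP2A2 return calcium to the store. Sarcolipin (SLN) is a small peptide that restrains these pumps. A microRNA lowers its targets by pairing its seed, near its 5′ end, with messenger RNA. The mature strand of the transfected precursor is shown because it is the only thing meant to differ between the groups, with the seed (bases 2 to 8) in capitals, as RefSeq gives it on GRCh38.p14 at chr19:13836447-13836467, minus strand. Sites for this seed in the members were not searched.
hsa-miR-27a-3p: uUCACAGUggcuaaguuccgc

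The RefSeq promoter table of GRCh38.p14 held 9 of the 10 members, in 11 windows of 300 bases, from 250 before a start of transcription to 50 after it. SLN had no window. Of these, 4 are printed because, among the members with a window and by their brightest probes, CASQ2, ATP2A1 and CACNA1S differed most between the replicate numbers and ATP2A2 differed little. The E-box, the letters CANNTG that myogenic factors such as MYOD1 can bind, is in capitals and reads the same on both strands. Each sequence is given 5′ to 3′ on the strand of its gene.
CASQ2, chr1:115768665-115768964, minus strand: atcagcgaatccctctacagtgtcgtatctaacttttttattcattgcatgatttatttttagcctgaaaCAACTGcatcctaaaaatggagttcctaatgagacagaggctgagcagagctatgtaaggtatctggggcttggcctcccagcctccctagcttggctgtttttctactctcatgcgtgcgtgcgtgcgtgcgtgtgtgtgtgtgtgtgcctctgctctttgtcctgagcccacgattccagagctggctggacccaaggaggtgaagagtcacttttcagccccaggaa
ATP2A1, chr16:28878238-28878537, plus strand: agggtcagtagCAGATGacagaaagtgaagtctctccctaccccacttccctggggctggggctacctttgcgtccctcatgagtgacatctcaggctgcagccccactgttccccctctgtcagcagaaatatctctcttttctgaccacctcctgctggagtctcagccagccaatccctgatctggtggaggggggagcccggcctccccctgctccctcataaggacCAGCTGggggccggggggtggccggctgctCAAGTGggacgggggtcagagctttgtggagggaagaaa
CACNA1S, chr1:201112377-201112676, minus strand: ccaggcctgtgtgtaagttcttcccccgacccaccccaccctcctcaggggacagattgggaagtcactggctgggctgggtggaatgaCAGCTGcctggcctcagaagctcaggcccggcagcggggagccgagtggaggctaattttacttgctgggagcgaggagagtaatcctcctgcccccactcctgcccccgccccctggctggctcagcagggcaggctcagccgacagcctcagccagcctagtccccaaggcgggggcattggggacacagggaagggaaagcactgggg
ATP2A2, chr12:110280366-110280665, plus strand: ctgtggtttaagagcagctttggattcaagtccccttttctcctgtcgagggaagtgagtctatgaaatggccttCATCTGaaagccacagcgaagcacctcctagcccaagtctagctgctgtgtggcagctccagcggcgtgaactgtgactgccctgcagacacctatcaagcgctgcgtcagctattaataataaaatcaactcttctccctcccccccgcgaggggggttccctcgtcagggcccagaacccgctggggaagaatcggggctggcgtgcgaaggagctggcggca
An E-box was in 9 of the 11 member windows and in 68.7% of all 35116 promoter windows. The printed windows hold 1 for CASQ2, 3 for ATP2A1, 1 for CACNA1S and 1 for ATP2A2. ATP2A1 and ATP2A2 each have another window that is not printed, with 0 E-boxes for ATP2A1, 1 for ATP2A2 and no MEF2 match. A match to the MEF2 site, searched on both strands, was in 2 of the 11 member windows, those printed for CASQ2 and ATP2A2, and in 2.99% of all windows, and it overlapped an E-box in 0 of them. These matches are letters in a window and say nothing about what binds there.

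Slide 1 held the pre-control arrays and slide 2 the pre-miR-27a arrays, and the effects of slide and transfection cannot be told apart. In pre-control, 69.9% to 73.9% of spots per array were well above background, against 74.1% to 78.0% after pre-miR-27a, and 0 were saturated. The values below are log2 signals after quantile normalization. They compare 1 probe between arrays, since levels of different probes are not on 1 scale. For 14 of the 16 member probes every array gave a signal well above background, and for both TRDN probes none did. The spot of CASQ1 on pre-miR-27a replicate 1 was flagged as not found and was left out of the fits, so its mean there rests on 2 arrays. Of 10 myogenic markers, 9, among them MYOD1, MYOG and DES, were well above background on all 6 arrays, while MYF5 was not kept. So were 9 of 10 markers of mature muscle fibres, 7 of 8 cardiac, 5 of 6 smooth muscle and 5 of 7 fibroblast markers. Detection alone therefore does not tell these cell types apart. Fewer cells of a kind and less RNA per cell cannot be told apart in such samples.

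After pre-miR-27a, 0 of the 15 member probes that could be tested had an adjusted p under 0.05 in limma, where 7.83% of all 36469 tested probes did. At an unadjusted p under 0.05 the count was 1 of 15, against 24.8% of all probes. Unpaired SAM called 0 members at either false discovery rate, with 9 of 36469 probes called at 1.9% and 1329 at 5%. The results of the paper name a paired SAM, so these counts are not those of its test. The median log2 difference of the 14 member probes well above background was -0.11, and differences ran from -0.45 to 0.66, beside a median of -0.02 over all probes. Taking the brightest probe of each gene, 0 of 10 members passed, against 6.64% of 16600 genes. The arrays of the groups did not overlap for 2 member probes, 1 of RYR1 and 1 of ATP2A2, both higher after pre-miR-27a, where 32.5% of all probes did not overlap and 14.8% were higher without overlap.

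Same-numbered arrays of the groups deviated together (correlations in the methods text), so each difference was also tested with the replicate number as a block. With that block, 4 of 15 member probes had an adjusted p under 0.05, 2 higher and 2 lower after pre-miR-27a, against 14.9% of all probes, 7.24% higher and 7.62% lower. They were 1 probe each of RYR1 and ATP2A2, which rose, and of SLN and CACNB1, which fell. By brightest probe this was 1 of 10 genes, SLN, against 13.5% of all genes. With 75th percentile scaling beside the block, the RYR1 probe alone passed, so 1 was higher and 0 lower, and with normexp 3 were higher and 5 lower. None of the 4 kept the call when any 1 pair of arrays was left out, where 0 probes of the whole array passed.

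**Figure D1:**
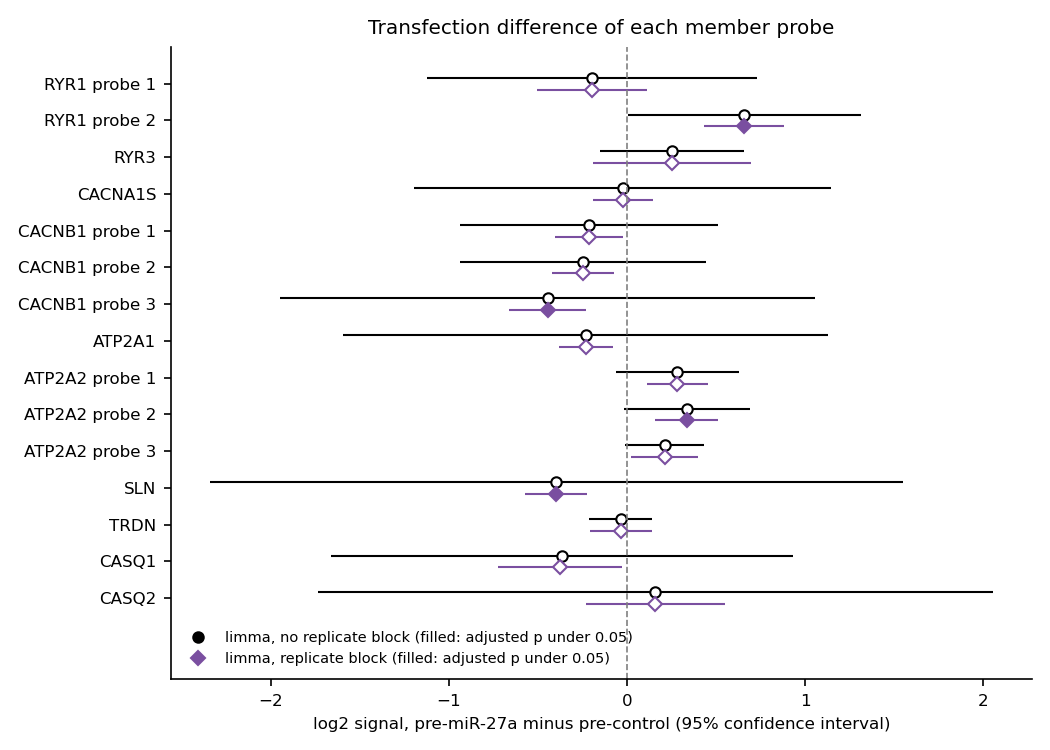
Difference in log2 signal, pre-miR-27a (n = 3) minus pre-control (n = 3), for the 15 tested member probes, with 95% confidence intervals from limma without (circles) and with (diamonds) the replicate block. No circle is filled, and 4 diamonds are filled, those of RYR1 probe 2, CACNB1 probe 3, ATP2A2 probe 2 and SLN.

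The voltage sensor came first. The CACNA1S probe, at chr1:199276056-199276115 on hg18, the build of the array files, read 6.51, 6.74 and 7.79 on pre-control arrays 1, 2 and 3. It read 6.55, 6.65 and 7.78 on pre-miR-27a arrays 1, 2 and 3. In both groups replicate 3 stood more than 1 log2 unit above the others, and the groups overlapped throughout. The difference between groups was -0.02 ± 0.47 (SE, n = 3 and 3; limma adjusted p = 0.983), with a 95% interval from -1.19 to 1.15, and from -0.19 to 0.14 with the block.

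CACNB1, the beta subunit that carries the pore to the membrane, had 3 probes on chromosome 17. Probes 1 and 2 overlap on the genome, at chr17:34583581-34583640 and chr17:34583600-34583659, so they are not independent readings. Probe 1 read 10.44, 10.37 and 11.04 in pre-control and 10.14, 10.14 and 10.93 after pre-miR-27a. Probe 2 read 10.20, 10.33 and 10.92 against 10.01, 9.99 and 10.70. Their differences were -0.21 ± 0.29 and -0.25 ± 0.28 (SE, n = 3 and 3), and neither passed with or without the block.

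Probe 3 of CACNB1, at chr17:34587798-34587857 and designed on another transcript (NM_199248), read 9.40, 9.60 and 10.93 in pre-control. After pre-miR-27a it read 8.97, 9.02 and 10.59. Each pre-miR-27a array was lower than the pre-control array of its number, by 0.34 to 0.58 log2 units, yet replicate 3 of either group lay above replicates 1 and 2 of both. The difference was -0.45 ± 0.60 without the block (limma adjusted p = 0.708) and -0.45 ± 0.07 with it (adjusted p = 0.0448), which is 1.36-fold lower. With 75th percentile scaling beside the block the adjusted p was 0.0511.

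RYR1, the release channel of skeletal muscle, had 2 probes far apart on chromosome 19. Probe 1, at chr19:43769805-43769864 and nearer the 3′ end of the gene, read 12.42, 12.21 and 13.08 in pre-control and 12.00, 12.04 and 13.07 after pre-miR-27a. Probe 2, at chr19:43682266-43682411, where the 60-base probe covers 146 bases of genome, read 7.76, 7.74 and 8.27 in pre-control and 8.30, 8.36 and 9.08 after pre-miR-27a. All pre-miR-27a arrays lay above all pre-control arrays for probe 2, whereas the groups overlapped for probe 1.

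The probe 2 difference was 0.66 ± 0.26, or 1.58-fold higher, with a limma adjusted p of 0.200 without the block and 0.0347 with it. The probe 1 difference was -0.20 ± 0.37 (adjusted p = 0.797, and 0.264 with the block). The probes therefore had different signs, and the log2 signal of probe 1 minus that of probe 2 was computed within each array, a choice made after the values were seen. It was 4.66, 4.47 and 4.81 on pre-control arrays and 3.69, 3.68 and 4.0 on pre-miR-27a arrays. The mean change of -0.85 restates the opposite signs of the probes and was not tested. Taking the mean of both probes turned the sign of RYR1, to 0.23.

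Among 18943 names whose brightest probe was well above background on all 6 arrays, the 3 with the pattern over the 6 arrays closest to RYR1 probe 2 were A_23_P115902, A_32_P98574 and THC2658419, with a root mean square difference of 0.0913, 0.0922 and 0.0943 log2 units. The array files give no gene symbol for them.

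RYR3, a release channel found in developing muscle, had 1 probe, at chr15:31945030-31945089. It read 6.10, 5.60 and 6.01 in pre-control and 6.27, 6.21 and 5.98 after pre-miR-27a. The highest value of the pair was in the pre-miR-27a array for replicates 1 and 2 and in the pre-control array for replicate 3. The difference was 0.25 ± 0.16 (limma adjusted p = 0.405), with an interval from -0.15 to 0.66.

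TRDN, which ties the release channel to calsequestrin, gave no signal well above background with either probe on the 6 arrays. The probe kept for the test read 2.02 to 2.12 in pre-control and 2.01 to 2.06 after pre-miR-27a, and the other was found on 4 of 6 arrays and was not tested. No fold is given for TRDN, and its difference, plotted with the other probes, compares signals near background. It was -0.04 after quantile normalization (limma adjusted p = 0.808) and -0.94 with 75th percentile scaling (0.0503).

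CASQ1, the calsequestrin of fast muscle fibres, was measured at chr1:158438045-158438104. It read 7.31, 6.81 and 7.86 in pre-control. After pre-miR-27a it read 6.33 and 7.59 on replicates 2 and 3, and 6.50 on replicate 1, where the spot was flagged as not found. The difference was -0.37 ± 0.49 (n = 3 and 2, limma adjusted p = 0.711), and the block gave an adjusted p of 0.121.

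CASQ2, the calsequestrin of heart and slow muscle, was measured at chr1:116044766-116044825. It read 9.15, 8.50 and 10.48 in pre-control and 9.02, 8.68 and 10.91 after pre-miR-27a. Replicate 3 was highest and replicate 2 lowest in both groups, and the pre-miR-27a array was the lower of its pair for replicate 1 only. The difference was 0.16 ± 0.76 (adjusted p = 0.927), with an interval from -1.74 to 2.05 that narrowed to -0.23 to 0.55 with the block (adjusted p = 0.445).

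ATP2A1, the calcium pump of fast muscle fibres (SERCA1), was measured at chr16:28822190-28822249. It read 11.53, 12.06 and 13.07 in pre-control and 11.29, 11.80 and 12.87 after pre-miR-27a. Each pre-miR-27a array was lower than its pair, by 0.20 to 0.26 log2 units, while arrays of 1 group differed by over 1 unit. The difference was -0.23 ± 0.55 (limma adjusted p = 0.842), and -0.23 ± 0.05 with the block (adjusted p = 0.0674).

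ATP2A2, the pump of slow muscle, heart and most other cells (SERCA2), had 3 probes on chromosome 12, all positive in difference. Probe 1, at chr12:109265595-109267105, read 12.42, 12.35 and 12.73 in pre-control and 12.69, 12.71 and 12.95 after pre-miR-27a. Probe 2, at chr12:109267507-109267566, read 12.01, 11.97 and 12.32 against 12.29, 12.39 and 12.63. Probe 3, at chr12:109273052-109273111, read 12.92, 12.87 and 12.99 against 13.02, 13.15 and 13.24.

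Every pre-miR-27a array was higher than its pair on all 3 probes, and only probe 3 had no overlap between the groups. The differences were 0.28 ± 0.14, 0.33 ± 0.14 and 0.21 ± 0.09, with limma adjusted p of 0.283, 0.223 and 0.222. With the block, probe 2 had an adjusted p of 0.0498 (0.0744 with 75th percentile scaling) and was 1.26-fold higher, and probes 1 and 3 had 0.0617 and 0.112. The 3 probes read 1 gene and count as 1 observation of it.

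SLN, the peptide that restrains the pumps, was measured at chr11:107083582-107083641. It read 9.97, 8.06 and 10.03 in pre-control and 9.65, 7.61 and 9.59 after pre-miR-27a. Replicate 2 was about 2 log2 units below the others in both groups, and each pre-miR-27a array was lower than its pair, by 0.31 to 0.45. The difference was -0.40 ± 0.78 without the block (limma adjusted p = 0.806) and -0.40 ± 0.06 with it (adjusted p = 0.0405), 1.32-fold lower. With 75th percentile scaling beside the block the adjusted p was 0.0509. Without pre-miR-27a replicate 2, the difference without the block turned to 0.27.

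**Figure D2:**
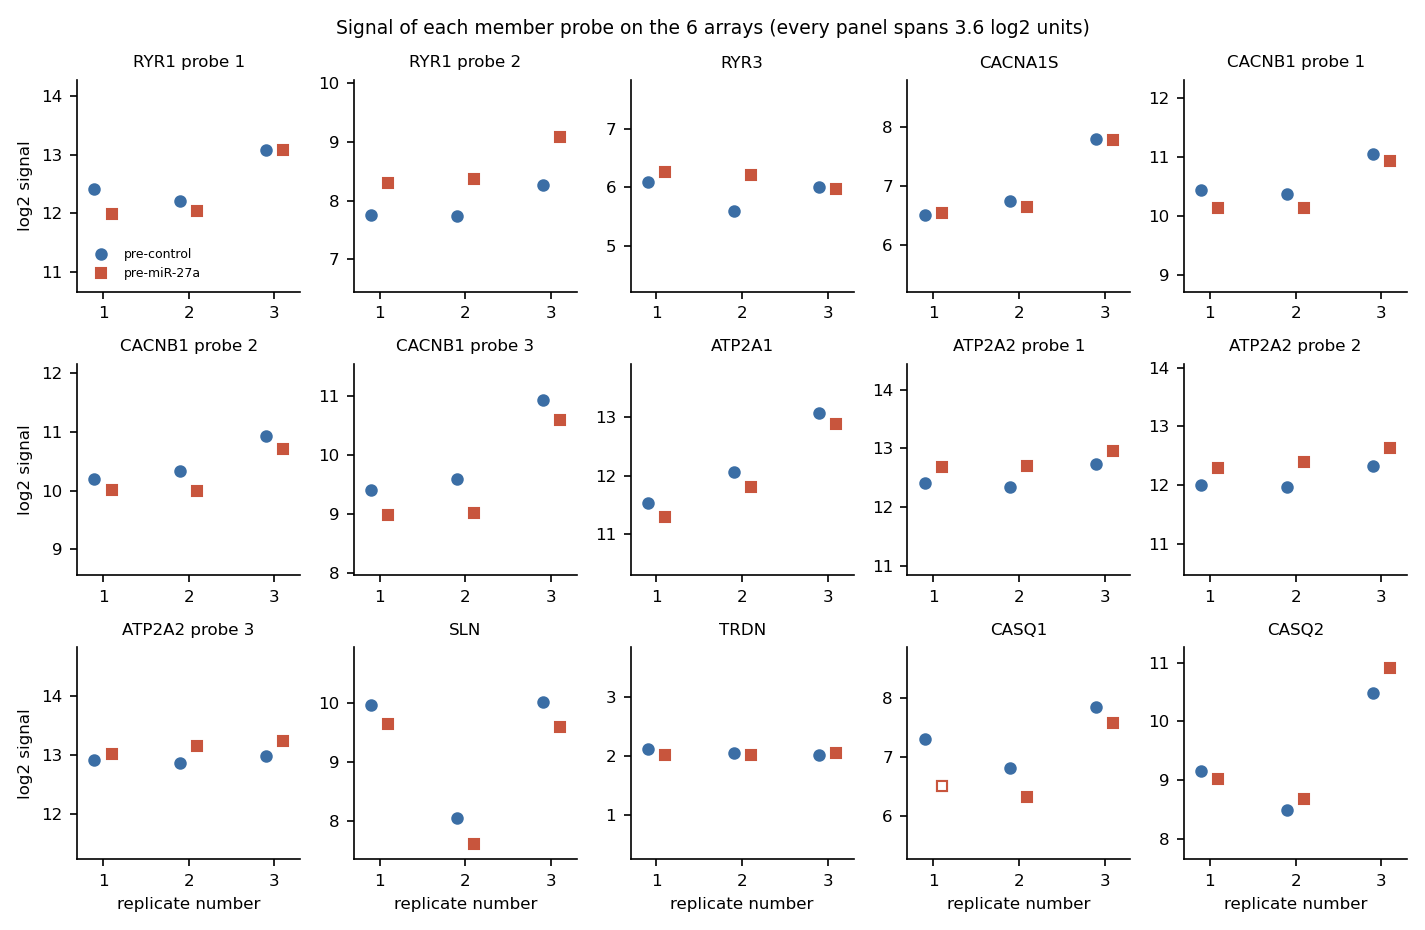
Log2 signal of the 15 tested member probes on the 6 arrays, by replicate number (pre-control, circles; pre-miR-27a, squares; the open square is the CASQ1 spot flagged as not found). Most probes are highest at replicate 3 in both groups, SLN is lowest at replicate 2 in both, and for most probes the groups differ less than the replicate numbers do.

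For most member probes the means of the replicate numbers thus lay farther apart than those of the groups. Of the 15 tested probes, 12 were highest in replicate 3 on both slides, against 16% of 31717 probes with 6 values and 16.8% of the 25710 well above background on all arrays. By brightest probe this held for 7 of 10 genes, the others being RYR3, SLN and TRDN. The replicate number took a median of 88.0% of the sum of squares of a member probe and 42.1% over all probes. Transfection took a median of 11.0% in the members and 32.4% over all probes. The replicate number has more degrees of freedom than transfection, so it takes the larger share on average even without any effect. These raw shares therefore do not rank replicate number against transfection, and each is best read beside its own value over all probes. Among member probes with 6 values, transfection had the larger share for RYR1 probe 2, RYR3, ATP2A2 probes 2 and 3 and TRDN. The span between the highest and lowest mean of same-numbered arrays had a median of 0.73 log2 units in the members and 0.28 over all probes.

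CASQ2 had the widest span among the members, 2.11 log2 units or 4.31-fold, and 99.5% of probes had a narrower one. SLN followed with 1.98 units (3.94-fold), CACNB1 probe 3 with 1.58 (2.98-fold), ATP2A1 with 1.56 (2.96-fold), CACNA1S with 1.25 (2.39-fold) and CASQ1 with 1.15 (2.22-fold). The pump of slow muscle and non-muscle cells, ATP2A2, spanned 0.15 to 0.33 on its 3 probes, and RYR3 spanned 0.28. The span was smaller than the size of the transfection difference for RYR1 probe 2, ATP2A2 probes 2 and 3 and TRDN, and larger for the other tested probes. A range of 3 means and a difference of 2 means are unlike measures, and this comparison was not made over all probes.

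**Figure D3:**
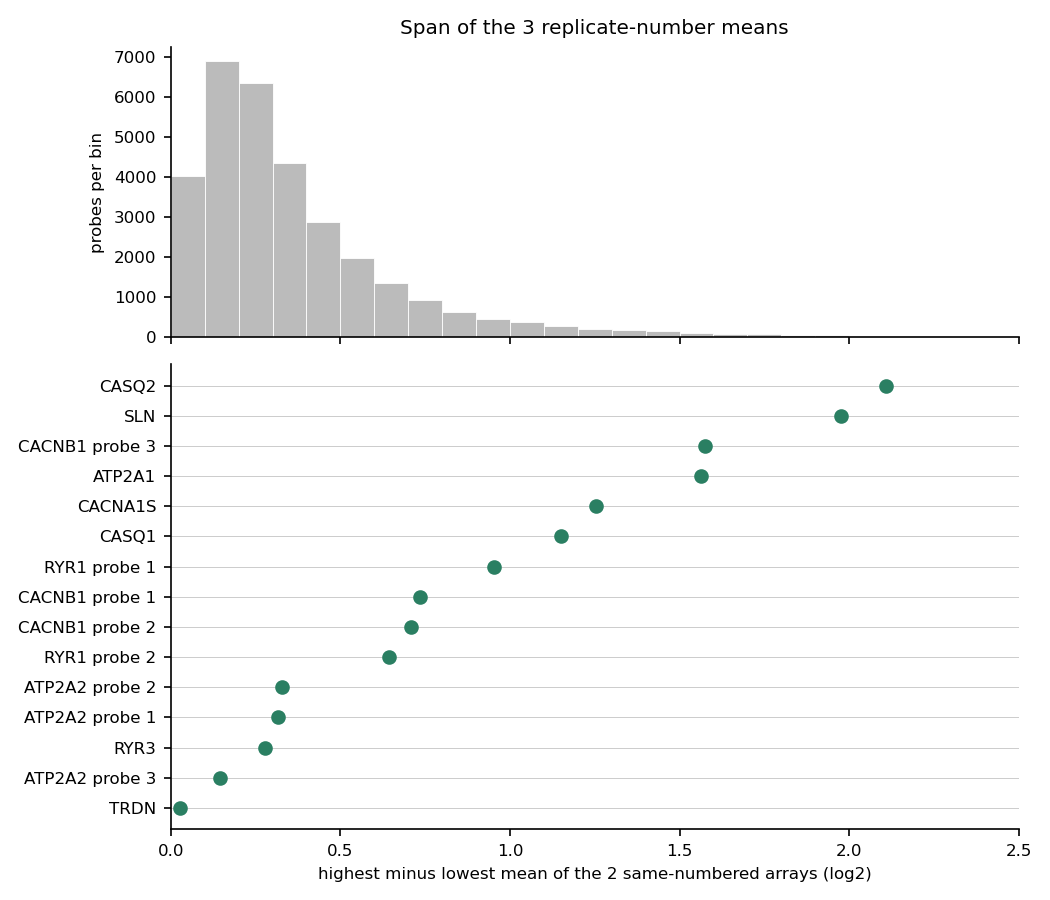
Span between the highest and lowest of the 3 means of same-numbered arrays, in log2 units, for probes with 6 values (bars, upper panel) and for each tested member probe (points, lower panel). CASQ2 and SLN lie near 2 log2 units, and ATP2A2, RYR3 and TRDN lie within the bulk of the array.

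A limma F test of the replicate numbers, added after the data were seen, had an adjusted p under 0.05 for 0 of 15 member probes and 0% of all probes, the lowest adjusted p being 0.0721. At an unadjusted p under 0.05 it counted 12 of 15 member probes against 26.9% of all. The outcome changed with the probes included and with the background correction. With normexp, 12 of 15 member probes passed, against 5694 of 36469, and with 75th percentile scaling 0 of either did. Restricted to probes with all arrays of at least 1 group well above background, 10 of 14 member probes passed, against 15.5% of 28788. These were the CASQ2, SLN, CASQ1, ATP2A1 and CACNA1S probes and all probes of CACNB1 and RYR1, while RYR3 and the ATP2A2 probes did not pass. In that fit SLN had an adjusted p of 0.00661, ATP2A1 of 0.00733, CACNA1S of 0.00838 and CASQ2 of 0.0107. Since replicate numbers are also positions on the slides, culture and position cannot be told apart.

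Markers of mature skeletal muscle fibres moved with the members across replicate numbers. Of 10 such genes, 9 were highest in replicate 3 in both groups, with a median span of 1.51 log2 units. CKM, the muscle creatine kinase, read 8.30, 8.33 and 10.34 in pre-control and 7.85, 8.08 and 10.07 after pre-miR-27a. TNNT3, a fast-fibre troponin, read 10.98, 10.72 and 13.06 against 10.61, 10.25 and 13.01. MYH7, the slow myosin, read 12.20, 10.78 and 12.54 against 11.67, 10.35 and 12.24, lowest in replicate 2 as was SLN.

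The summed processed intensity of the 10 fibre markers, before normalization, ranged from 90521 to 152647 in pre-control and from 67827 to 121309 after pre-miR-27a. Most of each sum was the ENO3 probe, at 74431 to 118661 and 56368 to 95500, whose difference after normalization was 0.0012 log2 units. MYH1 was the 1 fibre marker with no array well above background. Highest in replicate 3 in both groups were also 5 of 9 myogenic lineage markers, 4 of 7 cardiac, 2 of 6 smooth muscle and 1 of 7 fibroblast markers. MYH3, the embryonic myosin, read 15.14, 14.36 and 16.52 in pre-control and 15.28, 14.36 and 16.64 after pre-miR-27a, whereas COL1A1, a fibroblast collagen, was highest in replicate 1 in both groups. The part of the fibre markers in the replicate differences of the members was not tested.

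**Figure D4:**
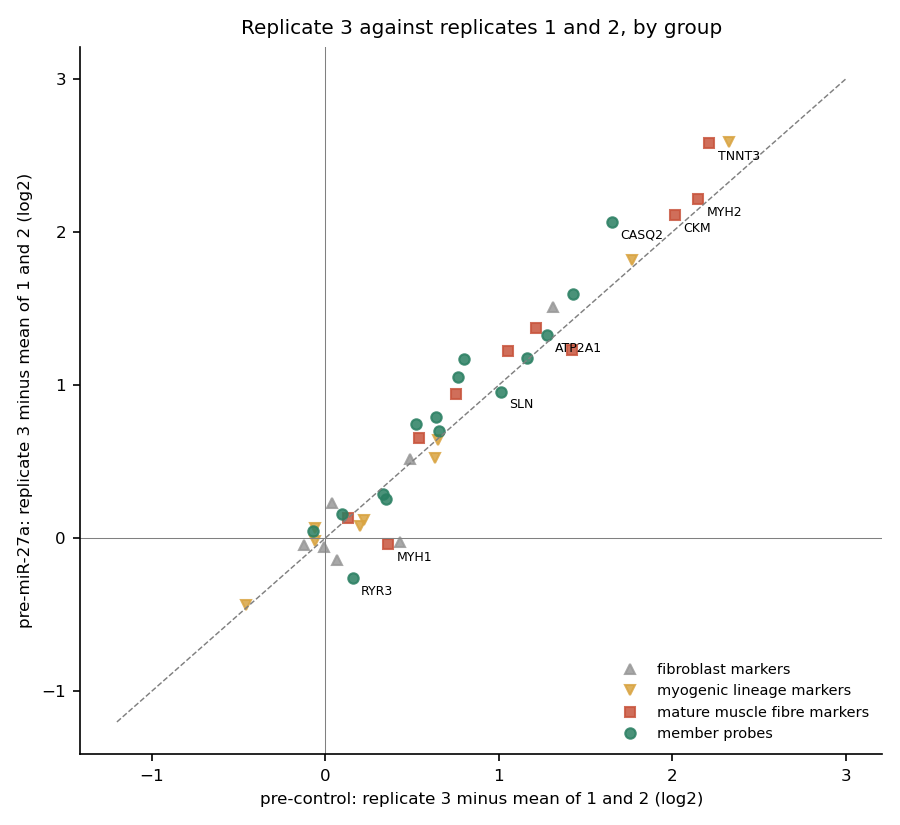
Log2 signal of replicate 3 minus the mean of replicates 1 and 2 in pre-control (x axis) and pre-miR-27a (y axis), for member probes and 3 marker lists; the dashed line marks equal values, and the CASQ1 point uses its spot flagged as not found. Members such as CASQ2 and ATP2A1 lie far above 0 in both groups, and the fibre markers CKM, MYH2 and TNNT3 lie farther out than these members.

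Between the groups, 0 of the 10 fibre markers and 0 of the 9 tested myogenic markers had an adjusted p under 0.05 without the block, where 6.64% of all genes did. With it, 2 fibre markers, ACTA1 and MYH7, and 3 myogenic markers, MYOG, MYOD1 and CDH15, were lower after pre-miR-27a, against 8.05% of all genes. MYOG, a regulator of muscle differentiation, read 9.72, 10.40 and 10.69 in pre-control and 8.87, 9.42 and 9.67 after pre-miR-27a, a difference of -0.95 ± 0.32 (limma adjusted p = 0.140, and 0.0334 with the block). Of the markers of other cell types, 1 of 7 cardiac genes (NKX2-5), 1 of 7 fibroblast genes (THY1) and 0 of 6 smooth muscle genes passed without the block, both lower after pre-miR-27a. With it, 2 cardiac (NKX2-5 and NPPB), 2 fibroblast (THY1 and COL1A1) and 3 smooth muscle genes (ACTA2, LMOD1 and TAGLN) were lower. The part of these markers in the differences of SLN and CACNB1 was not tested.

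Other genes of calcium handling were taken from lists of 78 genes, of which 75 were on the array and 70 could be tested. TRIM72 was the 1 gene with an adjusted p under 0.05 without the block, and it was higher after pre-miR-27a, while 0 were lower, against 2.61% of all genes higher and 4.03% lower. TRIM72, a protein of membrane repair in muscle, read 8.34, 8.54 and 8.66 in pre-control and 8.96, 9.14 and 9.22 after pre-miR-27a. Every pre-miR-27a array was above every pre-control array, and the difference was 0.59 ± 0.12 (limma adjusted p = 0.0456, and 0.0334 with the block). This count was 0 without any 1 of the 6 arrays, with SAM, and with the mean of all probes of a gene. Over the whole array, 1276 probes passed without pre-control 1, 81 without pre-control 3 and 0 without any other single array. SAM called 9 at a false discovery rate of 1.9% and 1329 at 5%. Where 0 probes of the whole array passed, the lost call says nothing about TRIM72 in particular.

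With the block, 12 of the 70 passed, 4 higher and 8 lower after pre-miR-27a, against 13.5% of all genes, 5.46% higher and 8.05% lower. Besides TRIM72, those higher were ATP2B1, a pump that exports calcium from the cell (0.58 log2 units), STAC3, an adaptor of the voltage sensor (0.49), and ORAI1, the pore of store-operated calcium entry (0.39). Those lower were DYSF, JPH2, CACNB3, SEPN1, CACNA1C, FKBP1A, STIM1 and CALR, by 0.32 to 0.60 log2 units in the blocked fit. The widest was DYSF, whose spot on pre-control replicate 1 was flagged as not found, so that its blocked value rests on 2 pairs. JPH2, which holds the junction between cell membrane and store, fell by 0.42, and STIM1, the store's calcium sensor, fell by 0.33. The median difference of the 70 genes was 0.04 log2 units, with 38 positive and 32 negative, beside a median of -0.04 over all genes.

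By list, 11 voltage sensor and channel subunits, 21 release and triad genes, 11 uptake and store genes, 13 entry and export genes and 14 buffers and signalling genes were tested. The 14 buffers and signalling genes had 0 calls without the block and 0 with it, where 6.64% and 13.5% of all genes were called. For so few genes a count of 0 is near those shares. Without the block, the release and triad list alone had a call, that of TRIM72. PLN, a pump inhibitor related to SLN, and ATP2A3, another pump of this family, gave no signal well above background on the 6 arrays. RYR2, the release channel of heart, read 6.15, 6.05 and 5.94 in pre-control and 6.17, 6.68 and 6.50 after pre-miR-27a, a difference of 0.40 ± 0.15 (limma adjusted p = 0.174, and 0.160 with the block).

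Across replicate numbers, 11 of the 21 release and triad genes were highest in replicate 3 in both groups, as were 4 of the 11 voltage sensor subunits, 5 of the 13 entry and export genes, 3 of the 14 buffers and signalling genes and 1 of the 11 uptake and store genes, beside 16% of all probes. TMEM38A, a counter-ion channel of the store, read 10.45, 10.70 and 11.53 in pre-control and 10.28, 10.56 and 11.48 after pre-miR-27a. CACNG1, the gamma subunit of the muscle channel, read 9.72, 9.99 and 11.01 against 9.85, 9.81 and 11.36. HSP90B1, a chaperone of the endoplasmic reticulum, spanned 0.13 log2 units between replicate numbers.

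**Figure D5:**
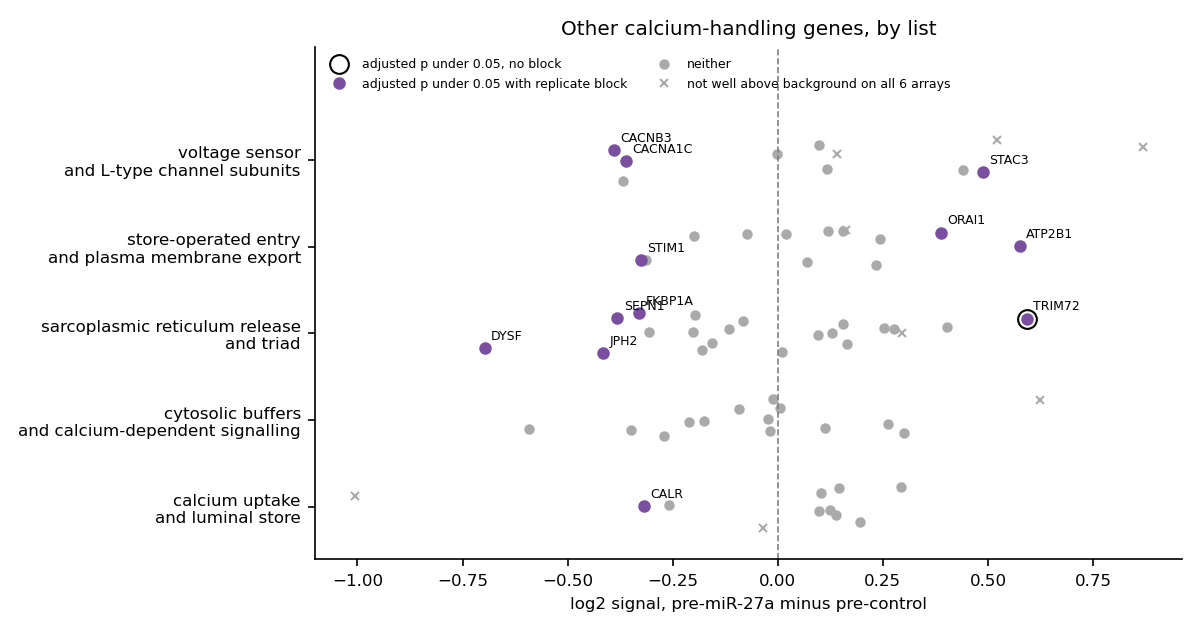
Difference in log2 signal, pre-miR-27a minus pre-control, for the 70 tested genes of calcium handling outside the members, 1 point per gene by its brightest probe, in 5 lists. The ringed point is TRIM72, and the 12 named points had an adjusted p under 0.05 with the replicate block, 4 to the right of 0 and 8 to the left.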

How the data were processed

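Total RNA of 6 samples was hybridized to 1-colour Agilent arrays. The authors deposited, per spot, the processed intensity from Feature Extraction (version 10.5.1.1 in the submitters' processing notes), corrected for background within the array but not normalized between arrays, with quality flags. They also deposited a table of log2 values, used only as an alternative, whose median absolute difference from the values computed here was 0.00401. Spots not found were set to missing, log2 intensities were quantile normalized as in the paper's methods, replicate spots were averaged, and probes missing on more than 1 of 6 arrays were removed. This left 36469 probes, and 0 per-sample columns went unused.

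Groups were compared with limma 3.58.1 (R 4.3.3, files read with data.table, version 1.17.8) and Benjamini-Hochberg adjustment over all probes kept, at a threshold of 0.05, and errors beside differences are standard errors. The precision is limited by the number of arrays, the median standard error being 0.14 log2 units. Whether replicate numbers pair the arrays was checked: over 31717 probes, arrays of 1 number deviated from their groups with correlations of 0.40, 0.46 and 0.41, against -0.27 to -0.12 between different numbers. As all were above 0.1, the numbers, which come from the labels, were taken as pairs, and a blocked fit is given where it changed a call.

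The members and the gene lists were chosen with earlier results of these data known. All 10 members are described by every probe, and other pathway genes are named where called on the brightest probe. The genes named from the blocked fit, the markers and RYR2, TMEM38A, CACNG1 and HSP90B1 were chosen after their values were seen. Old array names were matched through a RefSeq table (ORAI1 is TMEM142A in the files). The array files place probes on hg18, for which no exon annotation was used. Alternatives were 75th percentile scaling, normexp (offset 50), other filters, the deposited values and limma with a variance trend. Unpaired SAM, the replicate block and leaving out each array were further alternatives. The scripts were tested on simulated data.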

Additional observations from a re-analysis of the deposited data

How the results depend on the processing

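With 3 arrays per group, differences inside the intervals given could not be resolved, and the dim TRDN probes give no level. Without the block, the count of called member probes stayed at 0 under every alternative run, including leaving out each array. With the replicate block it was 4 of 15, 1 with 75th percentile scaling, 5 with the deposited log2 values, 8 with normexp and 0 without any 1 pair. Called member genes numbered 1 with the block and, beside it, 0 with 75th percentile scaling, 1 with the deposited values and 3 with normexp. Over the whole array, 2856 called probes became 5421 with the block, 9 and 1329 with SAM at false discovery rates of 1.9% and 5%, and 0 to 1276 without 1 array (1276 without pre-control 1, 81 without pre-control 3). Combined with the block, the deposited values gave 8537, 75th percentile scaling 4880, normexp 11152 and leaving out 1 pair 0. Scaling to the 75th percentile without the block gave 1275 higher and 1981 lower, against 1440 and 1416. Other pathway genes called numbered 1, then 3 with normexp and 2 with no filter on dim probes, only probes well above background, the positive and significant flag, the deposited values or a variance trend. They numbered 0 with SAM at either rate, with the mean of all kept probes and without any 1 array. With the block they numbered 12, with 6, 19 and 26 for 75th percentile scaling, the deposited values and normexp beside it, and 0 without any 1 pair. The F test of replicate numbers gave 0 in the whole array and 0 in the members, and 0 and 0 with 75th percentile scaling. It gave 5694 and 12 with normexp, 4459 and 10 with only probes well above background, and 1100 and 7 with the deposited values.

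Some differences of members changed sign, none of them called. With normexp, with or without the block, CACNA1S was 0.11 and TRDN 0.031. With the block and without pair 2, CACNA1S was 0.0098. The mean of both RYR1 probes was 0.23. Leaving out 1 array gave a range of -0.55 to 0.058 for RYR1 probe 1, -0.42 to 0.36 for CACNA1S, -0.98 to 0.029 for CACNB1 probe 3, -0.67 to 0.19 for ATP2A1, -1.04 to 0.27 for SLN, -0.996 to 0.26 for CASQ1 and -0.53 to 0.71 for CASQ2. RYR1 probe 2, RYR3 and all ATP2A2 probes were positive under every alternative run. The causes were not tested.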
